A study of Mus musculus with 42 samples.

Results

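The 10 transcripts described here respond to temperature or to misfolded protein, and they were measured in the cerebellum of mice on intermittent fasting. They are Cirbp and Rbm3, which rise in the cold, and Hspa1a, Hspa1b, Hspa8, Hsph1, Hsp90aa1, Dnajb1, Hspb1 and Hspa5, which rise in heat or protein stress. These 10 members of 35275 listed genes were matched by symbol, each symbol occurred once, and all 10 passed the filter on low counts at both time points. RNA-seq covered male C57BL/6 mice that were fed ad libitum (AL), fasted 16 h each day (IF16) or fasted 24 h on alternate days (EOD). The regimens ran for 3 months, from 3 to 6 months of age. In further mice the same 3 months were followed by 2 months of free feeding, until 8 months old. These refed groups are written AL-R, IF16-R and EOD-R, and AL-R mice had free access to food throughout. Each of the 6 groups had 5 libraries, listed as separate samples. Whether any was pooled, the hour of collection and the body temperature of the mice are not given in the sources used here.

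Cirbp and Rbm3 are RNA-binding proteins whose transcripts and proteins accumulate when mammalian cells or tissues are mildly cooled. The heat shock genes are switched on by heat shock factors, chiefly HSF1, when unfolded protein occupies the chaperones that otherwise hold HSF1 inactive. Hspa5, known as BiP, is the Hsp70 of the endoplasmic reticulum and is controlled mainly by the unfolded protein response, through ATF6 and XBP1. In rodents, body temperature follows the daily rhythm and falls during a long fast, and both kinds of gene are known to move in opposite directions with it.

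The promoter stretches are shown because they hold, in some members, the letters of known heat, ER stress or cold elements. They come from RefSeq on GRCm38.p6, whose table held promoters of 300 bases around the start for 7 of the 10 members, and they read 5′ to 3′ on the strand of the gene. The motifs searched on both strands were the heat shock element (GAANNTTC or TTCNNGAA), the ER stress element (CCAAT and CCACG spaced by 9 bases) and the mild-cold element (TCCCCGCC). Capitals mark a match, and positions count from the start site.

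Hspa1a: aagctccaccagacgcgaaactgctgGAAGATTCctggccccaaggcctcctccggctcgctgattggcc

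Hspa1b: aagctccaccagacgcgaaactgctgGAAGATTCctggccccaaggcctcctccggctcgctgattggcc

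Hspb1: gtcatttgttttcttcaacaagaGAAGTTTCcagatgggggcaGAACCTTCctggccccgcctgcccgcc

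Hsph1: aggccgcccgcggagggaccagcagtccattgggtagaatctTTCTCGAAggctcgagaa

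Hspa5: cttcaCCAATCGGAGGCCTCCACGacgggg

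Cirbp: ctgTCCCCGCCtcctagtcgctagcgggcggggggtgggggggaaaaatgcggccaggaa

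The Hspa1a stretch lies at chr17:34972217-34972286 and that of Hspa1b at chr17:34959299-34959368, both on the minus strand. Those of Hspb1 (chr5:135887779-135887848, plus), Hsph1 (chr5:149636352-149636411, minus), Hspa5 (chr2:34772020-34772049, plus) and Cirbp (chr10:80167589-80167648, plus) follow. The heat shock element began at -104 in both Hspa1a and Hspa1b, at -117 and -97 in Hspb1 and at -33 in Hsph1, whose promoter held 2 further matches past the start (at 37 and 42). Of 32851 promoters of the same length, 15.1% held this short motif, so a match alone is common. The ER stress element, which began at -65 in Hspa5, was found in 0.119% of promoters. The mild-cold element began at -247 in one Cirbp promoter, with 0 matches in the other Cirbp promoter of the table, and was found in 5.38% of promoters, and it also lay at -137 on the other strand of both Hspa1a and Hspa1b and at 35 in a promoter of Dnajb1. The promoters of Dnajb1 held 0 matches to the heat shock element. For Cirbp, the RefSeq start used here lies 1854 bases inside the deposited gene model. The promoters of Hspa1a and Hspa1b were identical at 296 of 300 positions. These genes are near-identical neighbours that encode the inducible Hsp70, so reads they share may be split between them or left uncounted. Their levels, separate or summed, are therefore uncertain.

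In the deposited annotation (mm10 per the submitters' processing notes) all 10 members are protein-coding. The cold-inducible genes are Cirbp (chr10:80165985-80172786) and Rbm3 (chrX:8138975-8145880). The cytosolic Hsp70 genes are Hspa1a (chr17:34969190-34972156), Hspa1b (chr17:34956436-34959238) and the constitutive Hspa8 (chr9:40800984-40805200). The others are Hsph1, an Hsp110 nucleotide exchange factor (chr5:149614287-149636376), Hsp90aa1, the inducible Hsp90 (chr12:110690605-110702728), and Dnajb1, an Hsp40 co-chaperone (chr8:83608175-83611902). Hspb1 is the small heat shock protein Hsp25 (chr5:135887919-135889563), and Hspa5 lies at chr2:34771970-34776531. Values are counts summed over all exons of a gene.

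All 6 markers of cerebellum were present in every library, for example Gabra6 of granule cells at 399 to 679 CPM (counts scaled to library size) and Pcp2 of Purkinje cells at 97.9 to 248 CPM. The 11 choroid plexus markers summed to between 33.2 and 4295 CPM, a spread found within groups as well as between them. Total counts ran from 26799825 to 36167435 per library. Counting error is small at that depth, and p-values measure the spread between libraries. In whole tissue, fewer cells of a type and less RNA per cell cannot be told apart. The 2 time points were deposited as separate tables, and CPM were scaled within each (TMM normalization), so levels are compared within a table unless stated.

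Per gene length, the constitutive Hsp70 Hspa8 was the highest member and the inducible Hsp70 genes Hspa1a and Hspa1b were the lowest. Over the 30 libraries Hspa8 averaged 459 FPKM, Hsp90aa1 235, Hspa5 127 and Cirbp 104. Rbm3 followed with 40.1 FPKM, Dnajb1 with 29.5, Hspb1 with 27.8 and Hsph1 with 24.5. Hspa1b averaged 4.08 FPKM and Hspa1a 3.19. Hspa8 exceeded Hsp90aa1, Hsp90aa1 exceeded Hspa5, Cirbp exceeded Rbm3 and Hsph1 exceeded Hspa1b in all 30 libraries. The other neighbours in this order overlapped: Hspa5 was above Cirbp in 21 libraries, Rbm3 above Dnajb1 in 26, Dnajb1 above Hspb1 in 23, Hspb1 above Hsph1 in 19 and Hspa1b above Hspa1a in 26. The lowly expressed genes varied most: the highest library exceeded the lowest 8.46-fold for Hspa1b (1.61 to 13.6 FPKM) and 5.51-fold for Hspa1a, while Hsp90aa1 ranged from 200 to 298.

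**Figure D1:**
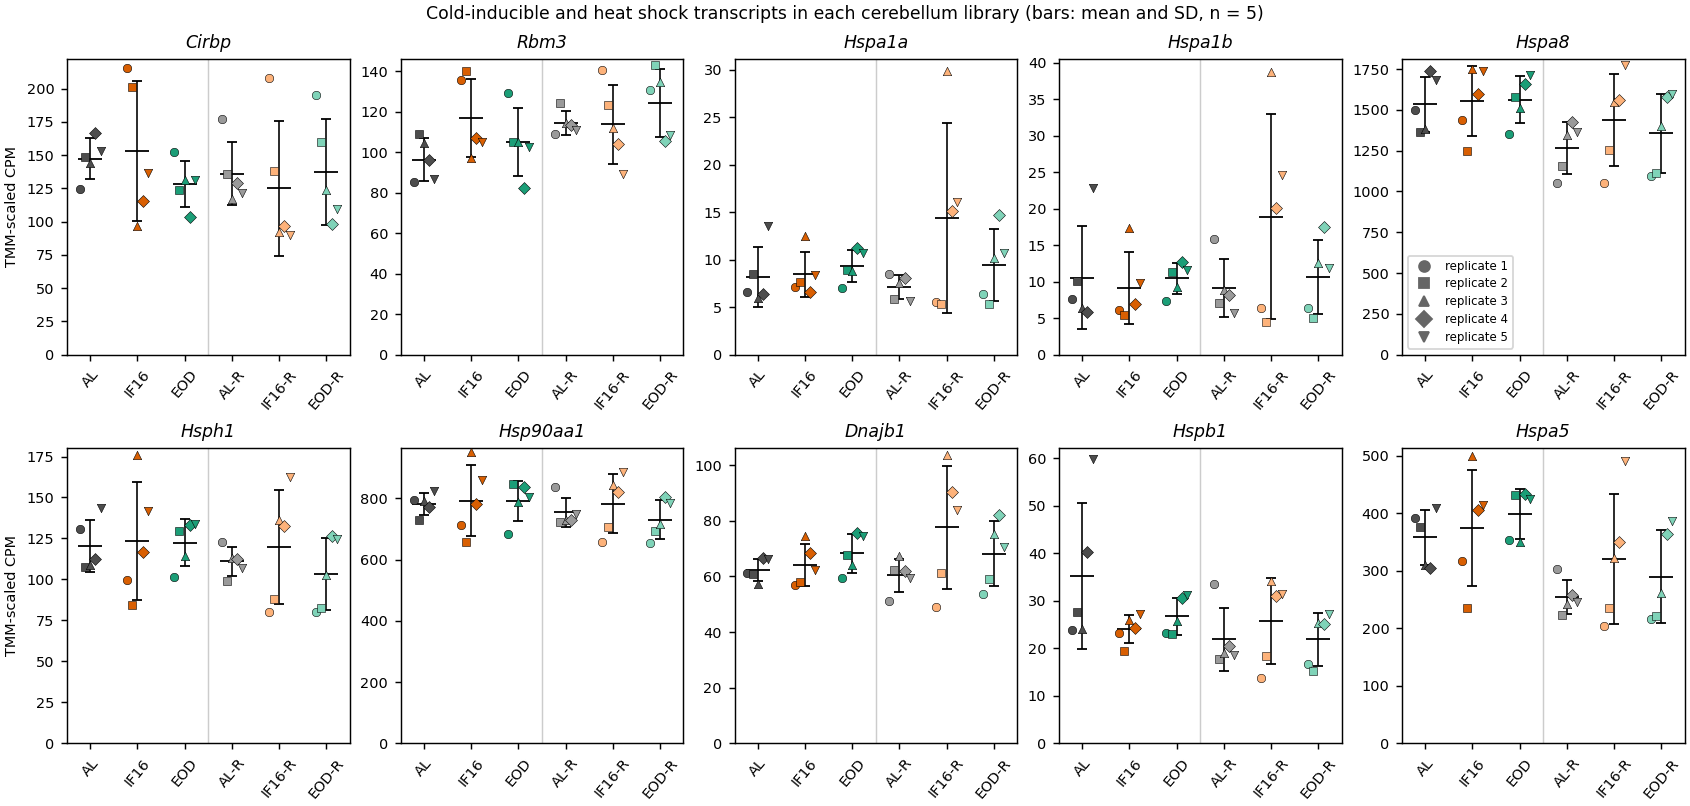
TMM-scaled CPM of the 10 members in each library, by group (AL, IF16 and EOD at the end of the regimens, AL-R, IF16-R and EOD-R after refeeding; bars are mean and SD, n = 5; marker shapes are the replicate numbers of the labels). Groups overlap in every panel within a time point (the share over all genes was not computed). IF16-R spans the widest range for Hspa1b, from 4.53 to 38.7 CPM.

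No member passed the test between diets. The tests were edgeR quasi-likelihood fits across all genes with Benjamini-Hochberg adjustment, with an adjusted p under 0.05 as the threshold for a call. At the end of the regimens 0 of 10 members were called in IF16 against AL, where 0.0483% of all genes tested were called. The count was 0 of 10 for EOD against AL (0.0664% of all genes) and 0 of 10 for EOD against IF16 (0% of all genes). After refeeding it was 0 of 10 for IF16-R against AL-R (0.17% of all genes), for EOD-R against AL-R (0.0426%) and for EOD-R against IF16-R (0.0182%). The test of whether the IF16 difference changed between the time points called 0 of 10 members (0.0474% of all genes), and that for EOD called 0 of 10 (0.0119%). The smallest adjusted p of a member over these 8 comparisons was 0.371 (edgeR), for Hspb1 in EOD against AL. So few genes of any kind passed that these counts say little about the members in particular. For each member and each pair of diets within a time point, the ranges of the groups overlapped. The share of all genes with such overlap was not computed, so this is a description and not a trait of the members.

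At an unadjusted p under 0.05 from edgeR, 2 of 10 members stood out in IF16 against AL (9.92% of all genes), 0 in EOD against AL (14.4%) and 0 in EOD against IF16 (3.62%). After refeeding there were 3 of 10 in IF16-R against AL-R (9.58%), 0 in EOD-R against AL-R (8.5%) and 0 in EOD-R against IF16-R (9.75%). For the change between time points there was 1 of 10 for IF16 (7.21%) and 0 for EOD (10.3%). DESeq2 also called 0 members in all 8 comparisons after adjustment.

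**Figure D2:**
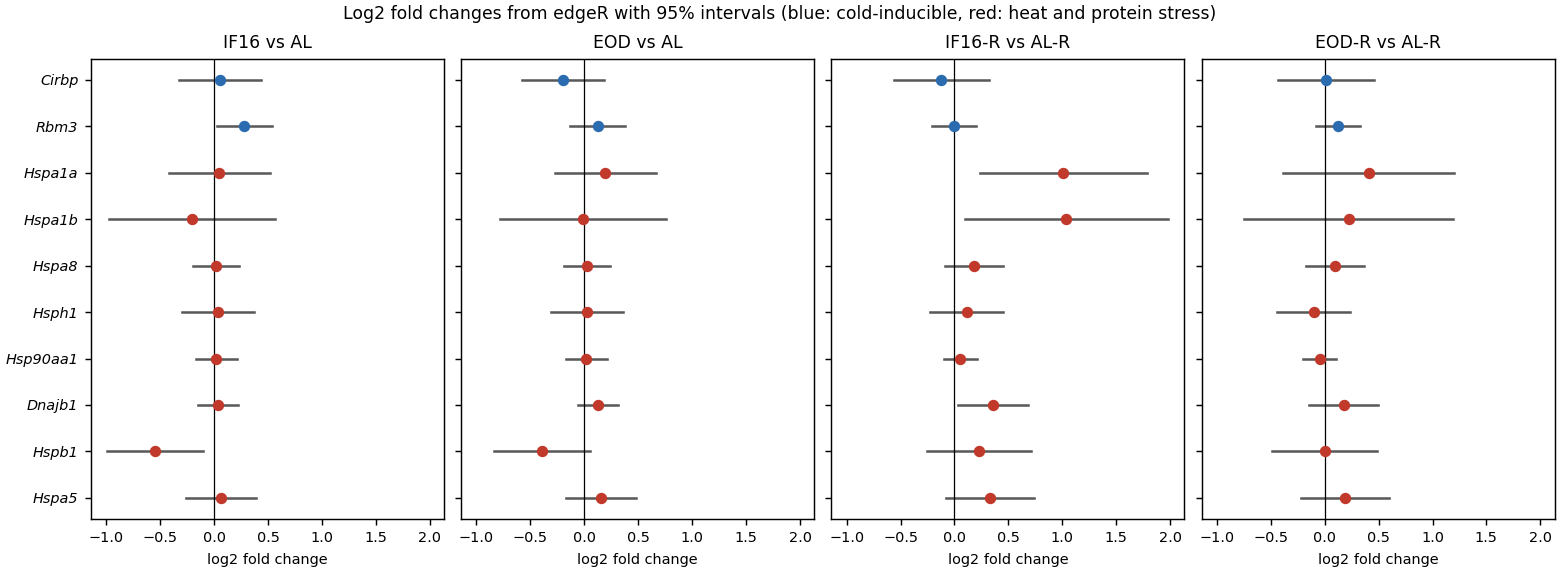
Log2 fold change of each member with its 95% interval (edgeR), for each fasted group against the ad libitum group of the same time point. Intervals exclude 0 for Rbm3 and Hspb1 in IF16 against AL and for Hspa1a, Hspa1b and Dnajb1 in IF16-R against AL-R, at unadjusted level only.

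Cirbp did not differ between diets beyond its spread. In AL the 5 libraries had 124, 149, 144, 167 and 153 CPM, and in IF16 they had 215, 201, 96.6, 115 and 137 CPM. In EOD they had 152, 124, 131, 104 and 132 CPM. IF16 thus held the highest and the lowest values of the time point, with replicates 1 and 2 above all AL libraries and replicates 3 and 4 below all of them. The log2 fold change of IF16 against AL was 0.05 (95% interval -0.32 to 0.43) and that of EOD against AL was -0.20 (-0.58 to 0.18). After refeeding, AL-R had 177, 136, 117, 129 and 121 CPM and IF16-R had 208, 138, 92.0, 96.6 and 90.1 CPM. EOD-R had 195, 160, 124, 98.3 and 109 CPM. In each of these 3 groups replicate 1 was the highest, and IF16-R and EOD-R reached below AL-R in 3 and 2 libraries. The log2 fold change was -0.12 (-0.56 to 0.32) for IF16-R against AL-R and 0.01 for EOD-R against AL-R.

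Rbm3 had 85.3, 109, 105, 96.4 and 86.6 CPM in AL and 136, 140, 97.2, 107 and 105 CPM in IF16. The 2 highest IF16 libraries are the same 2 that were highest in Cirbp, and the other 3 lie within the AL range. The log2 fold change of 0.28 (95% interval 0.02 to 0.54) had an adjusted p of 0.480 (edgeR), and without IF16 replicate 2 it was 0.21. In EOD against AL it was 0.12, in IF16-R against AL-R -0.01 and in EOD-R against AL-R 0.12, each with an interval that included 0.

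The inducible Hsp70 genes had their widest spread in IF16-R. Hspa1a had 8.47, 5.85, 7.57, 8.09 and 5.61 CPM in AL-R and 5.49, 5.36, 29.8, 15.1 and 16.1 CPM in IF16-R. Hspa1b had 15.9, 7.09, 8.84, 8.21 and 5.76 CPM in AL-R and 6.42, 4.53, 38.7, 20.1 and 24.6 CPM in IF16-R. In both genes IF16-R replicates 3, 4 and 5 were above every AL-R library, while replicates 1 and 2 were below every AL-R library for Hspa1a and near the lowest for Hspa1b. The log2 fold change was 1.01 (95% interval 0.24 to 1.78) for Hspa1a, with an adjusted p of 0.375, and 1.04 (0.09 to 1.98) for Hspa1b, with an adjusted p of 0.471 (both edgeR). With the counts of the near-identical genes summed it was 1.03 (edgeR adjusted p = 0.434). Without IF16-R replicate 3 the values fell to 0.55 and 0.59, so this library carries much of the difference.

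Dnajb1, the co-chaperone that hands substrates to Hsp70, followed the same libraries. It had 51.1, 62.5, 67.2, 62.1 and 59.4 CPM in AL-R and 49.1, 61.1, 104, 90.2 and 84.0 CPM in IF16-R. The log2 fold change was 0.36 (95% interval 0.04 to 0.68; edgeR adjusted p = 0.466), and 0.23 without IF16-R replicate 3. All 8 heat and stress members had a positive log2 fold change in IF16-R against AL-R, with a median of 0.28 beside -0.002 over all genes tested. These members vary together across libraries, so the shared sign is not 8 separate results. All 8 were negative in EOD-R against IF16-R, which shares the IF16-R libraries, with a median of -0.20. In EOD-R against AL-R, 6 of 8 were positive, with a median of 0.14 beside 0.001 over all genes.

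A property of the libraries moved with this comparison. The slope of log2 CPM on log2 gene length, here called the length gradient, was positive in all 5 IF16-R libraries (0.005 to 0.042) and negative in all 5 AL-R libraries (-0.026 to -0.004). With the gradient as a covariate the log2 fold changes were 0.01 for Hspa1a, -0.15 for Hspa1b and 0.06 for Dnajb1. They were -0.21 for Hsph1, -0.07 for Hsp90aa1, -0.006 for Hspa5, 0.01 for Hspa8 and 0.02 for Hspb1. The heat and stress members thus no longer shared a sign. The gradient and the diet cannot be told apart in these 10 libraries, since they do not overlap in it. The deviations of AL-R and IF16-R libraries from their group means correlated within every replicate number of the labels (r 0.139 to 0.523, median 0.168). Of these 10 libraries, 6 correlated best with the library of their own number in the other group. The labels do not say what a replicate number marks. With that number as a block the calls among all genes went from 28 to 95, and 0 of 10 members were called. Log2 fold changes under the block were 0.17 for Hspa8 (edgeR adjusted p = 0.0741), 0.32 for Dnajb1 (0.0819) and -0.18 for Cirbp (0.324).

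Hspb1, which protects the cytoskeleton and is made by vessel and glial cells as well as by some neurons, was the member nearest to a difference at the end of the regimens. It had 23.9, 27.6, 24.1, 40.3 and 59.9 CPM in AL, 23.2, 19.5, 26.0, 24.3 and 27.1 in IF16 and 23.3, 22.9, 25.7, 30.5 and 31.3 in EOD. Only AL replicates 4 and 5 stood above all fasted libraries. The log2 fold change was -0.55 (95% interval -0.99 to -0.10; edgeR adjusted p = 0.427) in IF16 against AL and -0.27 without AL replicate 5. It was -0.39 (-0.84 to 0.05) in EOD against AL. The 9 endothelial and vessel wall markers summed to 393 and 389 CPM in AL replicates 4 and 5 and to 343 to 358 CPM in the other AL libraries. The range was 295 to 359 CPM in IF16 and 283 to 360 CPM in EOD, and the part of vessel content in the Hspb1 values was not tested. The change of the IF16 difference between time points had a log2 value of 0.78 for Hspb1 (edgeR adjusted p = 0.652), and 0.50 without AL replicate 5.

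For Hspa8, Hsp90aa1, Hsph1 and Hspa5 the intervals included 0 at the end of the regimens. For IF16 against AL the log2 fold change was 0.02 for Hspa8 (95% interval -0.19 to 0.23), 0.02 for Hsp90aa1 (-0.17 to 0.21), 0.04 for Hsph1 (-0.30 to 0.37) and 0.06 for Hspa5 (-0.27 to 0.39). For EOD against AL it was 0.03, 0.02, 0.02 and 0.15 in the same order. After refeeding, Hspa5 had 302, 222, 242, 258 and 246 CPM in AL-R and 204, 234, 322, 350 and 490 CPM in IF16-R, a log2 fold change of 0.33 with an interval that included 0. The IF16-R libraries low in Hspa5 (replicates 1 and 2) are those low in Hspa1a and Hspa1b, and they are the highest of their group in Cirbp.

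Other chaperone lists did not pass the test between diets either. Of 6 heat shock factors and regulators, 30 cytosolic chaperones and cochaperones, 6 tested small heat shock proteins, 8 subunits of the chaperonin CCT, 8 mitochondrial chaperones and 22 tested ER genes, 0 were called in each of the 8 comparisons. The genes with the smallest p in IF16 against AL were Hsf4 among the factors (log2 fold change -0.37), Bag4 (0.20), the lens and glial small heat shock protein Cryab (-0.33) and Herpud1, an ER degradation factor (0.22). In IF16-R against AL-R they were Bag3 (0.17), Dnajb4 (0.18), Hspb8 (0.12) and Herpud1 (0.20). Of 14 CLK kinases and SR splicing factors, a group whose splicing activity is known to respond to body temperature, 0 were called in the 8 comparisons. At an unadjusted p under 0.05 (edgeR), 5 of the 14 were higher in IF16 than in AL, where 9.92% of all genes had such a p in either direction. None passed after adjustment (Clk1 0.25, edgeR adjusted p = 0.372). In EOD against AL 2 were higher and 1 lower at that level (14.4% of all genes). It was 1 lower in IF16-R against AL-R and 1 higher in each other refed comparison. EOD against IF16 and the changes between time points had 0. Of 15 circadian clock genes, 3 were called higher in IF16 than in AL (0.0483% of all genes). Among them was Ciart (log2 fold change 0.89, edgeR adjusted p = 0.00174). In EOD against AL 2 were called higher (0.0664% of all genes), and in the comparisons after refeeding 0 were called. The clock list, like the others, was chosen with earlier results of these data known, so its calls are no independent contrast to the chaperone lists.

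The ad libitum groups of the 2 time points did differ in many genes, and age and deposited table cannot be told apart in that comparison. In AL-R against AL, 1 of 10 members was called (23.9% of all genes), and 4 of 10 had an unadjusted p under 0.05 (40% of all genes), so the members' share was below or equal to the background. Hspb1 was lower in AL-R (33.6, 17.7, 19.0, 20.5 and 18.5 CPM), with a log2 fold change of -0.68 (SE 0.24; edgeR adjusted p = 0.0392). The call was lost without AL replicate 5, where the value was -0.40 (edgeR adjusted p = 0.219), and 5 of the other 9 single libraries also decided it. Hspa5 had a log2 fold change of -0.50 (edgeR adjusted p = 0.0568), Hspa8 -0.28 (0.0924) and Rbm3 0.24 (0.125). Of the 22 ER genes 9 were called lower and 2 higher in AL-R, with Creld2 at -0.58 and Pdia6 at -0.58. These list counts are from 1 fit, and the 4030 genes it called over the whole table became 830 without AL replicate 4, 1250 without AL replicate 5, 2111 and 2303 without AL-R replicates 2 and 3, and 6173 without AL replicate 1. They became 1194 with the choroid plexus mean and 223 with the length gradient as a covariate. Of the 30 cytosolic chaperones 5 were called lower and 1 higher, and 3 of 6 small heat shock proteins and 3 of 8 CCT subunits were called lower. Called lower were also 2 of 6 heat shock factors and regulators and 1 of 8 mitochondrial chaperones. Of 14 CLK kinases and SR factors 0 were called. These shares stand beside the 23.9% of all genes called in either direction, and the cytosolic, mitochondrial and CLK shares lie below it.

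Within groups the members varied together. Libraries high in Cirbp and Rbm3 tended to be low in the heat and stress members, with exceptions for Cirbp. AL-R replicate 1 was the highest of its group in Cirbp and Hsph1 but the lowest in Hspa8 (1050 CPM) and Dnajb1 (51.1 CPM). AL replicates 4 and 5, the highest of AL in Cirbp (167 and 153 CPM), were also its highest in Hspa8 (1738 and 1683 CPM), Dnajb1 and Hspb1. Deviations of log2 CPM from the group means were correlated over the 15 libraries of each time point. P-values came from 100000 permutations within groups, two-sided, and were adjusted over the 132 relations computed. The permutations treat the libraries of a group as exchangeable and take no account of the replicate numbers, which go together in part after refeeding. All 16 pairs of a cold-inducible and a heat or stress member had a negative Pearson r at both time points, with medians of -0.730 at the end of the regimens and -0.756 after refeeding. The adjusted permutation p was under 0.05 for 10 and 11 of the 16 pairs by Pearson's r and for 7 and 14 by Spearman's rho. All 28 pairs among the 8 heat and stress members had a positive r at both time points, with medians of 0.697 and 0.841, and 22 and 25 of them passed by Pearson's r. The members share libraries and a common scaling, so these pairs are not independent of one another.

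**Figure D3:**
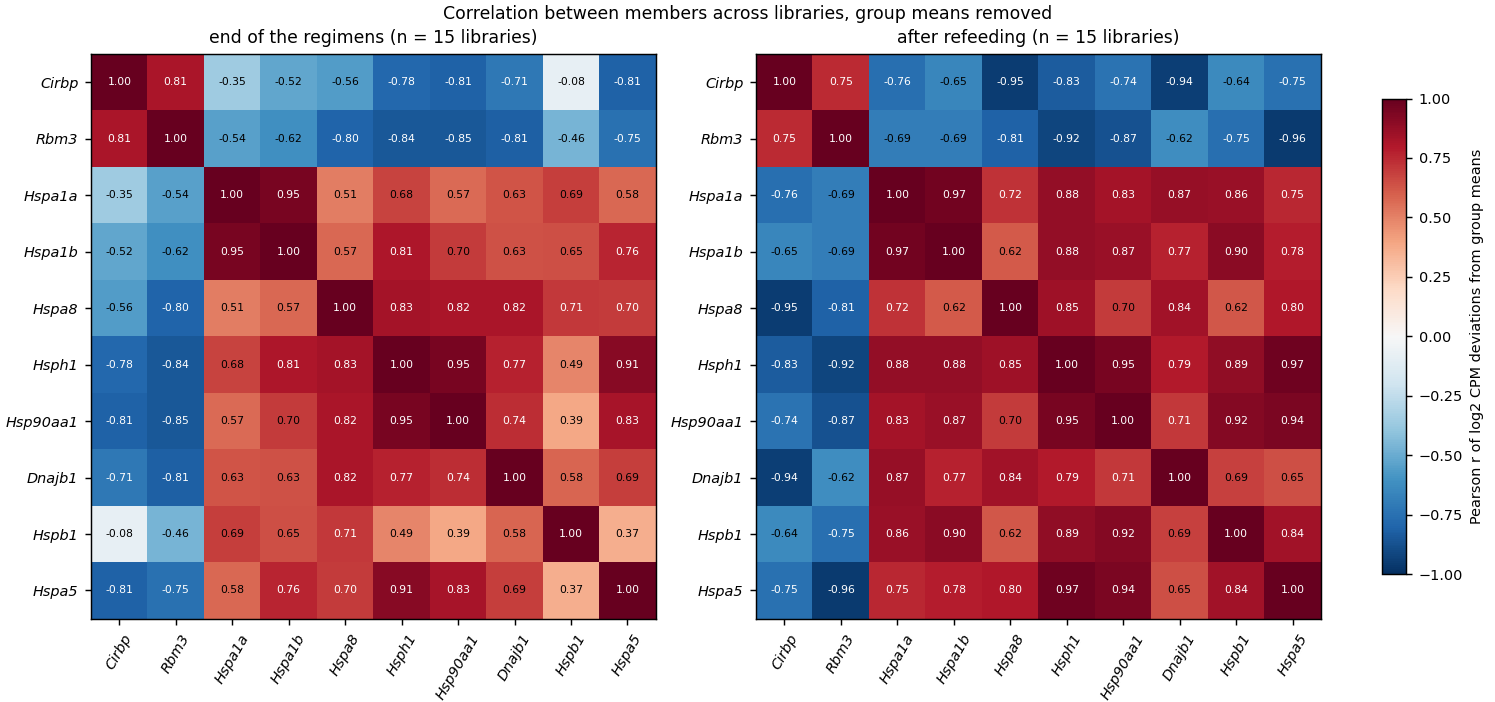
Pearson r between the members over the 15 libraries of each time point, from log2 CPM with group means removed (red positive, blue negative). Cirbp and Rbm3 form a block opposite to the 8 heat and stress members at both time points; the weakest cold with heat pair is Cirbp with Hspb1 at the end of the regimens (-0.08).

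Cirbp and Hsph1 show the opposition library by library. At the end of the regimens Hsph1 had 131, 107, 109, 112 and 143 CPM in AL, 99.8, 84.5, 176, 117 and 142 CPM in IF16 and 101, 130, 114, 133 and 134 CPM in EOD. The IF16 libraries 1 and 2, highest in Cirbp, were the lowest in Hsph1 of their group, and IF16 replicate 3, lowest in Cirbp, was the highest in Hsph1 of all 15. Pearson's r was -0.784 (permutation p = 0.0159, adjusted 0.0313) and Spearman's rho -0.618 (permutation p = 0.0558, adjusted 0.0877). Without IF16 replicates 1 and 2, the farthest from the median in Cirbp, r was -0.534 (permutation p = 0.12). The relation kept its sign but was weaker and no longer passed without those libraries.

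After refeeding Hsph1 had 123, 98.8, 113, 113 and 107 CPM in AL-R, 80.1, 88.3, 136, 133 and 163 CPM in IF16-R and 80.4, 82.7, 103, 127 and 124 CPM in EOD-R. In IF16-R and EOD-R the libraries 1 and 2 were high in Cirbp and low in Hsph1, and the libraries 3, 4 and 5 were the reverse. AL-R replicate 1 was an exception, with the highest Cirbp and the highest Hsph1 of its group. Pearson's r was -0.834 (permutation p = 0.00287, adjusted 0.00924) and rho -0.857 (permutation p = 0.00181, adjusted 0.00683), and r was -0.699 without the 2 farthest libraries. Within the numbers of the replicates, that is with their means removed as well, all 16 cold with heat pairs remained negative after refeeding, with a median r of -0.851, for which no p was computed.

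**Figure D4:**
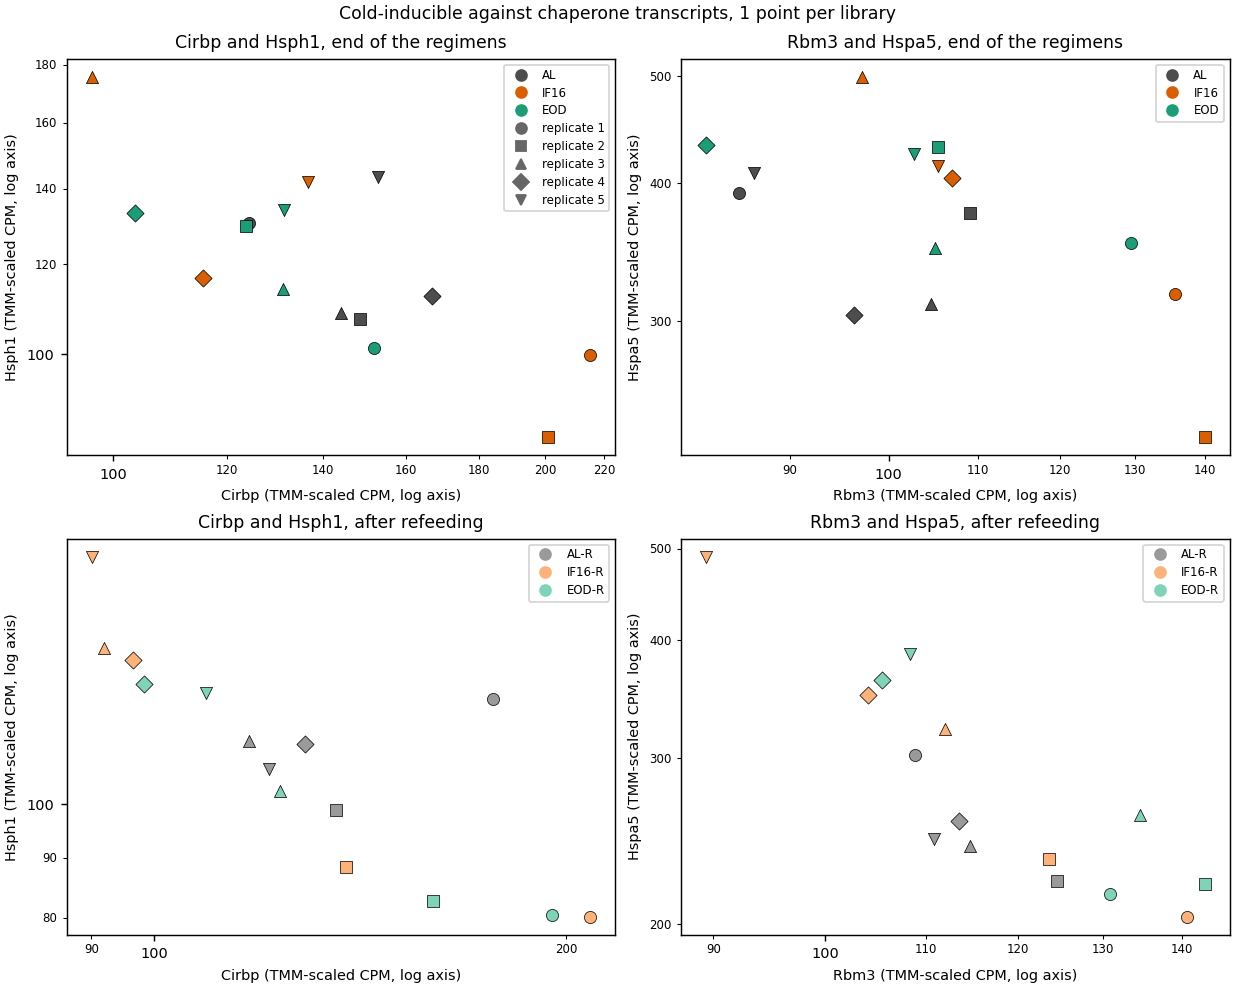
CPM of Cirbp against Hsph1 and of Rbm3 against Hspa5, 1 point per library on log axes, coloured by group, with shapes for replicate numbers. After refeeding Cirbp falls from 208 to 90.1 CPM within IF16-R while Hsph1 rises from 80.1 to 163 CPM, and AL-R replicate 1 (177 and 123 CPM) lies off the line.

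The tightest relations differed between the time points, and the difference between them was not tested. After refeeding Cirbp was most opposed to Hspa8 (r = -0.947, rho = -0.900; permutation p = 5e-05 and 0.00022, adjusted 0.00113 and 0.00297) and to Dnajb1 (r = -0.939, rho = -0.925; permutation p = 0.00014 and 0.00024, adjusted 0.00168 and 0.00297). Without the 2 farthest libraries these were -0.928 and -0.870. Rbm3 was most opposed to Hspa5 (r = -0.957, rho = -0.936; permutation p = 6e-05 and 0.00018, adjusted 0.00113 and 0.00297), with -0.928 without the 2 farthest. At the end of the regimens Rbm3 was most opposed to Hsp90aa1 (r = -0.845) and Hsph1 (r = -0.845, rho = -0.893). Cirbp was then most opposed to Hspa5 (r = -0.808) and Hsp90aa1 (r = -0.807), with adjusted permutation p-values of 0.0158 and 0.0267. By rho these p-values were 0.0418 and 0.055, and r was -0.620 and -0.588 without the 2 farthest. Cirbp with Hspa8 had r = -0.557 (adjusted permutation p = 0.128), or -0.110 without the 2 farthest. The cold-inducible genes rose and fell together, with r = 0.814 between Cirbp and Rbm3 at the end of the regimens (rho = 0.729; permutation p = 0.00088 and 0.0087, adjusted 0.00462 and 0.0214). After refeeding r was 0.748 (rho = 0.732; permutation p = 0.0136 and 0.0158, adjusted 0.0291 and 0.0348). Without the 2 farthest libraries these were 0.689 and 0.642, the latter with a permutation p of 0.0522.

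Several pairs of heat and stress members were close to one another. Hspa1a and Hspa1b had r = 0.949 at the end of the regimens (rho = 0.882; permutation p = 0.00013 and 0.00026, adjusted 0.00168 and 0.00297) and 0.967 after refeeding (rho = 0.943). The latter had a permutation p of 1e-05, the smallest that the permutations can give. Shared reads between these genes could add to that value and were not tested. Hsph1 and Hsp90aa1 had r = 0.948 and 0.952, Hsph1 and Hspa5 0.910 and 0.969, and Hspa8 and Hsph1 0.834 and 0.850, at the end of the regimens and after refeeding. Hspa5 with Hsp90b1, the Hsp90 of the endoplasmic reticulum, had r = 0.900 and 0.863. Hsp90aa1 with Dnajb1 had r = 0.740 and 0.706, which without the 2 farthest libraries became 0.602 and 0.622, with permutation p-values of 0.0752 and 0.0899. Hspb1 had the lowest r at the end of the regimens, with 0.386 to Hsp90aa1 and 0.365 to Hspa5, against 0.916 and 0.842 after refeeding. Not all its pairs were loose then, with r = 0.706 to Hspa8 and 0.695 to Hspa1a. Without AL replicates 4 and 5, the farthest from the median in Hspb1, its r to Hspa5 was 0.662. Without IF16 replicates 2 and 3, the farthest in Hsp90aa1, its r to Hsp90aa1 was 0.341.

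After refeeding all 10 members had a spread above the median of all genes. The pooled SD within groups was 0.93 for Hspa1b and 0.72 for Hspa1a in log2 CPM, and 0.253% and 0.422% of genes with a mean of at least 1 CPM had a larger one. Hspb1 had an SD of 0.46, Cirbp of 0.40 and Hspa5 of 0.38, and 1.69% of genes exceeded Cirbp. The median SD of all those genes was 0.10. At the end of the regimens the median was 0.18 and the SD was 0.63 for Hspa1b, 0.38 for Hspa1a, 0.32 for Cirbp and 0.28 for Hsph1. Hspa8 (0.17), Hsp90aa1 (0.15) and Dnajb1 (0.14) lay below that median. Hsp90aa1 (0.15, then 0.14 after refeeding) and Rbm3 (0.21, then 0.19) varied least among the members after refeeding.

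Library properties moved with Cirbp in part. At the end of the regimens the length gradient had r = -0.732 with Cirbp (rho = -0.800; permutation p = 0.00031 for each, adjusted 0.00273 and 0.00315) and r = 0.362 with Hsph1 (adjusted permutation p = 0.272). After refeeding its r was -0.319 with Cirbp (adjusted permutation p = 0.396). The choroid plexus marker mean had r = 0.299 with Cirbp and -0.457 with Hsph1 at the end of the regimens, and neither passed. With the length gradient removed from every member, all 16 cold with heat pairs stayed negative at both time points, with medians of -0.797 and -0.742. With the choroid plexus mean removed they also stayed negative, with medians of -0.722 and -0.770. Removing the replicate number left 15 of 16 negative at the end of the regimens and 16 of 16 after refeeding.

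Many genes beyond the members follow Cirbp, so an r to Cirbp alone is a weak mark. At the end of the regimens 25.9% of 14240 genes had r below -0.5 with Cirbp, and after refeeding 22.3% of 14218 genes did. By that cut 6 of 8 heat and stress members were opposed to Cirbp at the end of the regimens. So were 11 of 30 cytosolic chaperones, 11 of 22 ER genes, 1 of 8 CCT subunits and 1 of 8 mitochondrial chaperones. After refeeding these counts were 8 of 8, 22 of 30, 12 of 22, 8 of 8 and 7 of 8. The opposition was then not particular to the members. The share of all genes was not computed for Rbm3. An r above 0.5 with Cirbp was found in 26.6% of genes at the end of the regimens and in 17.8% after refeeding. With Hsph1, 8.39% and 17.4% of genes had r above 0.5, and 8.94% and 15.2% had r below -0.5. An r above 0.5 was thus rarer for Hsph1 than for Cirbp at the end of the regimens, but about as common after refeeding. Against that background, 16 of 22 ER chaperone and unfolded protein response genes had r above 0.5 with Hsph1 at the end of the regimens and 17 of 22 after refeeding. Among them were Hsp90b1 (0.887 and 0.774), the disulfide isomerase Pdia4 (0.883 and 0.949) and Sdf2l1 (0.783 and 0.902). Of 30 cytosolic chaperones 12 and 17 did so, among them the Hsp40 Dnaja1 (0.931 and 0.914), the Hsp90 cochaperone Chordc1 (0.922 and 0.937) and Stip1 (0.562 and 0.937).

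The chaperonin CCT, which folds actin and tubulin, had r above 0.5 with Hsph1 for 3 of 8 subunits at the end of the regimens and for 8 of 8 after refeeding. Of 8 mitochondrial chaperones 1 and 5 did so, with Hspd1, the mitochondrial Hsp60, at 0.904 and 0.961, and its partner Hspe1 near 0 at the end of the regimens and at 0.681 after refeeding. Hsf1 itself, the main heat shock factor, had r = -0.359 and 0.436. Of 6 heat shock factors and regulators 0 and 2 had r above 0.5 with Hsph1, and of 4 measured small heat shock proteins 0 and 2. Outside the chaperones, 1 and 4 of 14 CLK kinases and SR factors, 0 and 4 of 15 clock genes and 2 and 0 of 12 immediate early genes did so, while 5 of 6 oligodendrocyte markers did so after refeeding and 0 of 6 before. These correlations across genes within the same libraries are descriptions, and genes are not independent replicates.

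**Figure D5:**
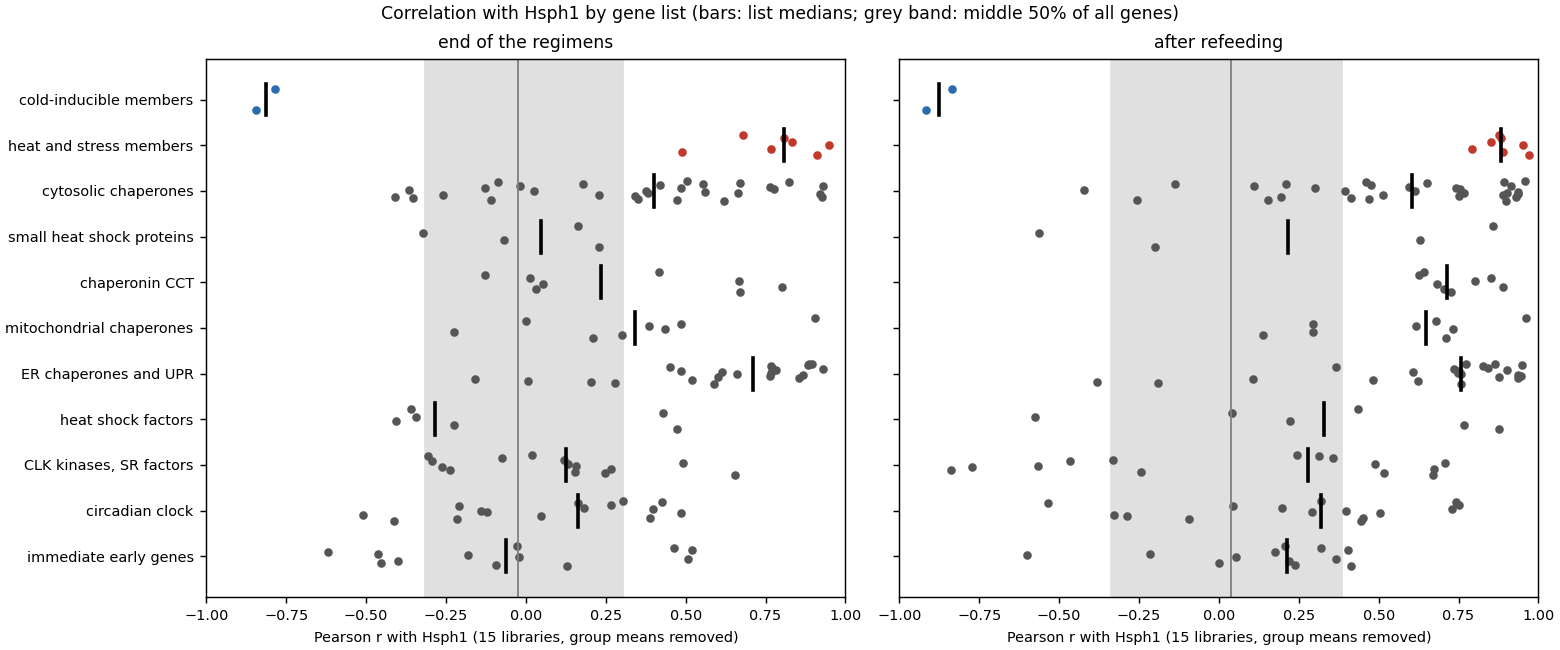
Pearson r of each gene of 11 lists with Hsph1 over the 15 libraries of each time point (group means removed; black bars are list medians, the grey band holds the middle 50% of all genes and the grey line their median). The ER list has medians of 0.711 and 0.757, the clock list 0.164 and 0.318, and the cold-inducible members lie at the negative end.

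Over all 30 libraries, with log2 CPM centred within each time point, the 5 of 13148 genes most like Hsph1 were Hsp90aa1 (r = 0.948), P4ha1 (0.919), Chordc1 (0.906), Hspd1 (0.901) and Hspa5 (0.900). Hsp90aa1 and Hspa5 are members, Chordc1 and Hspd1 are on the chaperone lists, and P4ha1 encodes a collagen prolyl hydroxylase of the endoplasmic reticulum. Hspa1b ranked 14th with 0.826, and Hspa8 18th with 0.809. The 5 genes most like Cirbp were Ccdc74a (r = 0.883), Mapk12 (0.880), Hnrnpdl (0.877), Trmu (0.875) and Deaf1 (0.874), of which Hnrnpdl encodes an RNA-binding protein. Rbm3 ranked 332nd of the 13148 genes, with r = 0.688.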

How the data were processed

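RNA-seq counts of 30 cerebellum libraries were used; 12 H3K9me3 and input samples were not analysed here. The authors deposited whole-number counts per gene and FPKM in 2 tables of 15 libraries each. The submitters' processing notes name STAR 2.5, HTSeq 0.6.1, DESeq2 and mm10, without role or order; strand handling is not given in the sources used here. The deposited FPKM were recomputed from those counts, gene lengths and column sums and matched to within rounding for genes with at least 10 counts. All columns were mapped by name, and 0 were left over.

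Counts were fitted with edgeR 4.0.16 in R 4.3.3 (TMM, filterByExpr by group, quasi-likelihood test, Benjamini-Hochberg over all genes), 1 fit per table and a joint fit for AL-R against AL and for the change between time points. SEs derive from the F statistic and intervals are 95% t intervals. Correlations used log2 CPM (prior count 2). Both methods were tested on simulated data. DESeq2 1.42.0, RLE scaling, filters, covariates, the replicate block and left-out libraries were the alternatives. For IF16-R and AL-R the deviations of same-numbered libraries correlated in 5 of 5 pairs (lowest r 0.139), and 6 of 10 libraries correlated best with their own number. The labels do not say what a number marks, so whether the numbers pair the libraries is not known.

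The members and lists were chosen with earlier results of these data known. Named genes are all members, up to 2 genes with the smallest p per list and comparison, called genes and the 5 genes most like Cirbp and Hsph1 among those with a mean of at least 1 CPM; genes named for their r with Hsph1 and the 5 least like each were chosen after their values were seen.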

Additional observations from a re-analysis of the deposited data

Results flagged for a closer look

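In each of 60 groups of 5 libraries (10 members in 6 groups) the highest and lowest library were compared with the rest. In 3 groups the gap to the nearest library was too large a share of the range by Dixon's criterion, where chance flags about 1 in 20 groups. Hspb1 reached 33.6 CPM in replicate 1 of AL-R, beside 17.7 to 20.5 CPM in the other 4. Hsp90aa1 reached 838 CPM in the same library, beside 723 to 751 CPM. This library also has the highest Cirbp of its group (177 CPM) and 15.9 CPM of Hspa1b, and it lies off the inverse relation of Cirbp and Hsph1. Hspa1b reached 22.9 CPM in replicate 5 of AL, beside 5.79 to 10.2 CPM, and the same library has the highest Hspa1a (13.6 CPM) and Hspb1 (59.9 CPM) at the end of the regimens.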

How the results depend on the processing

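Over 176 alternative counts for the 8 diet comparisons 0 members were called, and the smallest adjusted p was 0.0741 (edgeR, replicate block, Hspa8 in IF16-R against AL-R). Of 1931 alternative log2 fold changes 145 changed sign, which was read as a reversal only where the 95% interval of the reported value excluded 0 or the alternative called the gene; that left 1, Hspa1b in IF16-R against AL-R with the length gradient as a covariate (-0.148). In AL-R against AL the 1 called member became 3 with the replicate block (Hspb1, Hspa8 and Hspa5) and 0 with the length gradient or the choroid plexus mean as a covariate, and ranged from 0 to 1 with 1 library left out (0 without AL replicates 4 or 5 or AL-R replicates 2, 3, 4 or 5). The block changed no other count of members called. Only for IF16-R and AL-R did the deviations of same-numbered libraries correlate above 0.1 in every pair. Over 0.1 were 2 of 5 pairs for EOD-R and AL-R, 4 of 5 for EOD-R and IF16-R and 0 to 2 of 5 at the end of the regimens.

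Without the 2 libraries farthest from the median, 4 of 12 planned correlations no longer had a permutation p under 0.05: Cirbp with Hsph1 at the end of the regimens (-0.534), Hsp90aa1 with Dnajb1 at both time points (0.602 and 0.622) and Cirbp with Rbm3 after refeeding (0.642). The cause was not tested. The removal of the length gradient, the choroid plexus mean or the replicate number was chosen after seeing the data. Counts of called genes over the whole table move with the setting. IF16 against AL had 8 (3 to 135 over the settings, 96 with DESeq2), EOD against AL 11 (2 to 188, 128 with DESeq2) and EOD against IF16 0 (0 to 1). IF16-R against AL-R had 28 (0 with the length gradient, 0 in 1 fit of all 30 libraries, 95 with the replicate block and 103 with DESeq2). It had 0 without IF16-R replicate 3, 2 to 7 without any other single library but IF16-R replicate 1, and 65 without that one. The refed comparisons of EOD-R move as widely: EOD-R against AL-R had 7 (0 to 79) and EOD-R against IF16-R 3 (0 to 121). The changes between time points had 8 (5 to 36) for IF16 and 2 (0 to 14) for EOD, and AL-R against AL had 4030 (223 to 6173). Hspa1a and Hspa1b have the lowest mean CPM of the members and the widest spread within groups, and 5 libraries a group limit every comparison.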

Other observations

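The genes with the lowest r to the reference members over the 30 libraries were read out after their values were seen. The gene most opposed to Cirbp was Dnaja1 (r = -0.912), an Hsp40 cochaperone of Hsp70, followed by Cnot4 (-0.892), Snx16 (-0.887), P4ha1 (-0.877) and Trib1 (-0.870). Those most opposed to Hsph1 were Pla2g4e (-0.885), Rsrp1 (-0.814), Vipr1 (-0.812), Rbm3 (-0.809) and AI854517 (-0.804). Rbm3 was thus among the 5 of 13148 genes most opposed to Hsph1, while Cirbp (-0.798) was close behind.

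Of 6 oligodendrocyte markers 5 had r above 0.5 with Hsph1 after refeeding and 0 at the end of the regimens, and the summed markers ran from 4908 to 6854 CPM after refeeding. Their part in the relations among the members was not tested.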
